A study of Mus musculus with 96 samples.

Results

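The Oog and Pramel genes are the mouse members of the PRAME family. They were taken from the deposited count table as every symbol made of Oog, Pramel or Pramef and a number, which gave 51 genes of 36935 symbols: 4 named Oog, 47 named Pramel and 0 named Pramef. The study profiled RNA of single oocytes at metaphase II and of single blastomeres from 2-cell embryos in mice carrying a changed Padi6, an oocyte gene of the cytoplasmic lattices. The labels name oocytes of genotype Padi6+/+ (22 libraries) and Padi6P620A/P620A (22), 2-cell blastomeres of genotype Padi6+/+ (22) and Padi6MatP620A/+ (22), and negative controls (8). Here these are called wild-type oocyte, mutant oocyte, wild-type 2-cell and mutant 2-cell, always as labels. All females were 4 to 8 weeks old and were superovulated, and oocytes were collected about 13 hours after hCG. Males were 8 to 12 weeks old, and embryos came from in vitro fertilisation. Each library labelled oocyte or 2-cell is 1 cell, and the labels give neither the animal it came from nor the blastomeres that share an embryo.

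PRAME proteins are built from leucine-rich repeats, and the family has expanded into clusters of similar copies in rodents. Most copies are known for expression in the germ line, the oocyte and the early embryo. Human PRAME and mouse Pramel7 act as substrate receptors of ubiquitin ligases built on CUL2, and Pramel7 lowers the level of UHRF1, a partner of the DNA methyltransferase DNMT1, in embryonic stem cells. Oocytes fill with stored RNA before ovulation and are largely silent when mature. The embryo clears much of this store and switches on a burst of its own transcripts at the 2-cell stage.

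Because RNA content and stage label did not match in many libraries, the libraries were sorted by content. Libraries entered with at least 100000 counts and 4000 detected genes. A library was called oocyte-like with at least 100 CPM (counts per 1000000 counts of the library) of Mos, a kinase transcript of the mature oocyte, and 2-cell-like with less Mos and at least 1 count of Zfp352, a transcript of the 2-cell burst. This gave 39 oocyte-like libraries, 39 2-cell-like libraries, 1 library in neither set and 17 that were not kept. The oocyte-like libraries were 12 labelled wild-type oocyte, 14 wild-type 2-cell, 9 mutant 2-cell and 4 negative control. The 2-cell-like libraries were 7 labelled wild-type oocyte, 19 mutant oocyte, 11 mutant 2-cell and 2 negative control. Thus 0 libraries labelled mutant oocyte were oocyte-like, and 0 labelled wild-type 2-cell were 2-cell-like. Without Mos, which the rule used, 11 oocyte markers summed to between 4216 and 62797 CPM in oocyte-like libraries and between 3422 and 13118 CPM in 2-cell-like ones, with 0 markers lacking counts. Without Zfp352, also used, 8 markers of the 2-cell burst summed to at most 12.2 CPM in oocyte-like libraries and to between 30.0 and 3024 CPM in 2-cell-like ones. Tdpoz3, Tdpoz4, Eif1ad6 and AF067061 had no count in the former. Cumulus and granulosa markers, 12 genes, reached 9306 CPM in oocyte-like libraries and 139 CPM in 2-cell-like ones, where Hsd17b1, Thbs1 and Ptx3 were at 0. The 4 oviduct markers reached 3103 and 331 CPM. The 5 blood markers reached 387 and 49.1 CPM, and the 5 sperm markers 18.5 and 45.8 CPM, with Prm1, Tnp1 and Tnp2 at 0 in oocyte-like libraries and Tnp1 and Tnp2 at 0 in 2-cell-like ones. Library 61 (labelled wild-type 2-cell) held the 9306 CPM of cumulus and granulosa markers. It also had the lowest oocyte marker sum of the oocyte-like set, 4417 CPM with Mos. The next lowest was 14118 CPM with Mos, in library 23, above every 2-cell-like library. Kept libraries held 162539 to 5762563 counts, and both ends were libraries labelled negative control. The 6 kept libraries of that label were all sorted as oocyte-like or 2-cell-like. Why they held such RNA was not tested. With no animal named, each set counts as 1 sample. Sets and labels are therefore compared without a test or p-value. Every 95% interval is exact for pooled read counts, covers their counting error only and leaves out the spread between libraries. Reads copied by PCR, with no molecular identifiers, do not count single molecules, so the intervals do not cover error in molecule counts either.

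The family was abundant in both sets and broader in the 2-cell-like one. In oocyte-like libraries 17 of 51 members reached 10 CPM in the pooled counts, where 23.3% of all symbols did. In 2-cell-like libraries 29 members reached it, where 23% of all symbols did, and all 17 were among these 29. At the other end, 18 members had no count in any oocyte-like library, and 0 members were without a count in 2-cell-like ones. All members together gave 1031 to 14903 CPM in oocyte-like libraries (median 7510) and 4776 to 34018 CPM in 2-cell-like libraries (median 14763). The ranges overlap, and the median of the 2-cell-like libraries lies just under the highest oocyte-like value. By label, the 2-cell-like medians were 14763 CPM for wild-type oocyte, 18439 for mutant oocyte, 20617 for negative control and 11035 for mutant 2-cell. Those labelled mutant 2-cell spanned 4776 to 14128 CPM, all within the oocyte-like range. A median of 22 members had a count in an oocyte-like library (range 13 to 26) against 32 in a 2-cell-like library (22 to 44). After thinning to 100000 counts these medians were 17.1 and 23.8.

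**Figure D1:**
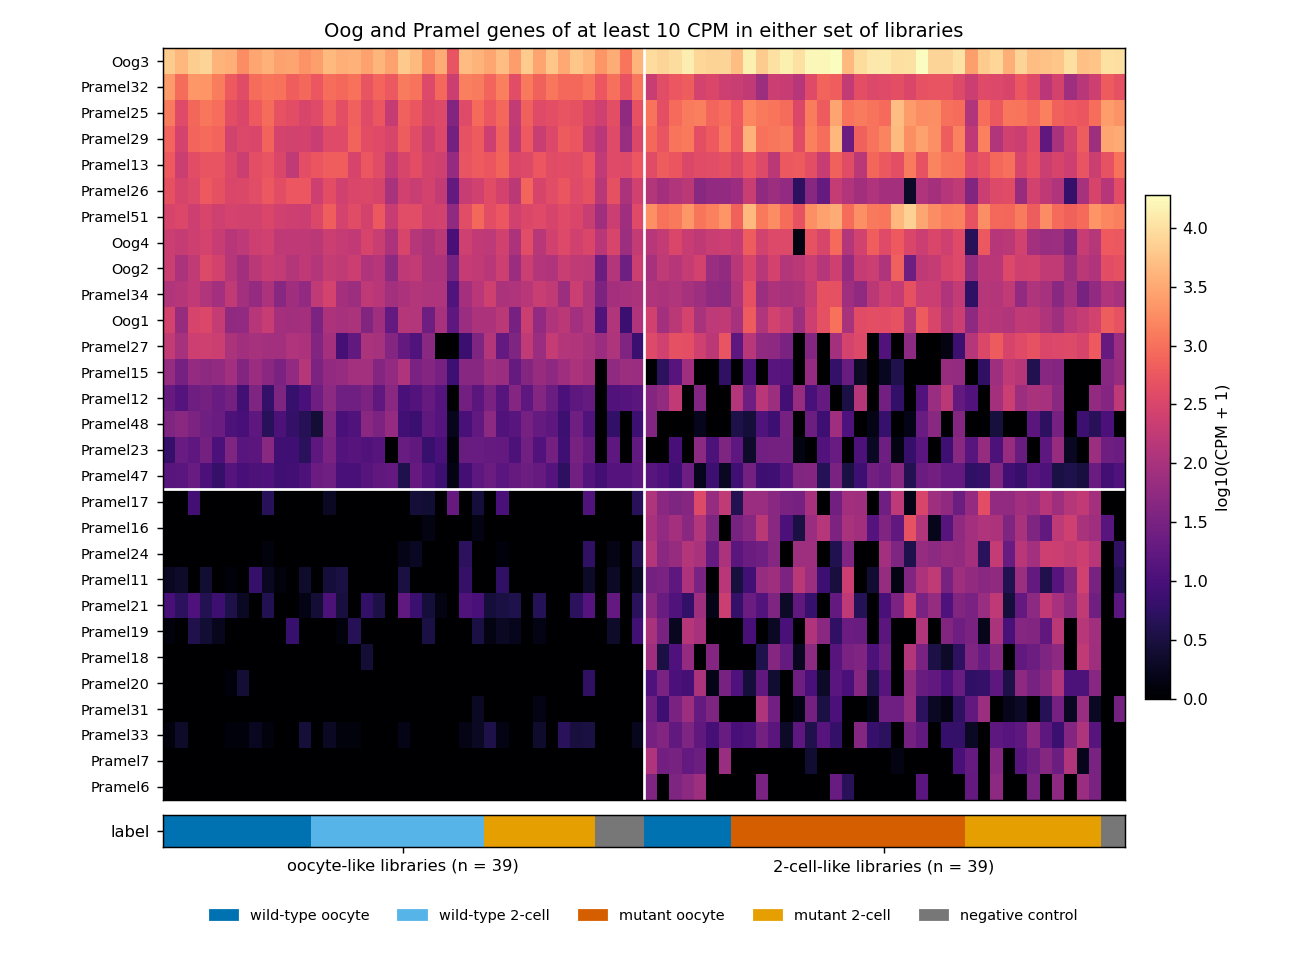
Levels of the 29 members that reached 10 CPM in either set, as log10(CPM + 1), in 39 oocyte-like and 39 2-cell-like libraries (columns, ordered by label as in the colour strip). Members above the white line reached 10 CPM in oocyte-like libraries; the 12 below it are near 0 there and patchy in 2-cell-like libraries.

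By position, the family is clustered. The RefSeq gene table (GRCm38.p6) places 28 members on chromosome 4, 18 on chromosome 5, 2 on chromosome 2, 2 on chromosome 12 and 1 on chromosome X. Chromosome 4 carried most of the RNA: 12 of its 28 members reached 10 CPM in oocyte-like libraries and 21 did in 2-cell-like libraries. Of the 18 on chromosome 5, 3 and 4 reached it, and 12 had no count in oocyte-like libraries. Both members on chromosome 12, Oog1 and Pramel51, reached it in both sets. Both on chromosome 2, Pramel6 and Pramel7, did so only in the 2-cell-like pool.

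Of the 51 members, 27 could be compared between the sets, having at least 10 CPM in the pool of one set and a count in at least 50% of its libraries. At least 2-fold higher in 2-cell-like libraries were 17 of the 27, against 20.9% of the 9677 genes compared, and 3 were at least 2-fold lower, against 27.8%. The other 7 lay within 2-fold. The median log2 ratio was 1.34 over the 27 members and -0.08 over all genes compared. Of the 27, 10 entered through the 2-cell-like set alone and had to be higher there. Nothing is therefore read from this median or from the counts over the 27. Of the 17 members that reached 10 CPM in the oocyte-like pool, 7 were higher and 3 lower, with a median of 0.50. At least 10-fold higher were 10 members, against 3.19% of all genes. These are the same 10 that entered through the 2-cell-like set alone, so this count is not read as an excess. TMM scaling moved the median of all genes by -0.24 and DESeq2 size factors by -0.14 on the log2 scale. Under either, 16 members were higher, and Pramel27 was the one within 2-fold, at 0.81 and 0.91. With 1 library left out at a time, the ratio of Pramel27 ran from 1.87 to 2.16. Of the oocyte-like libraries, 11 had over 1000 CPM of the cumulus and granulosa markers; without them 17 and 29 members reached 10 CPM, 16 were higher and 3 lower.

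**Figure D2:**
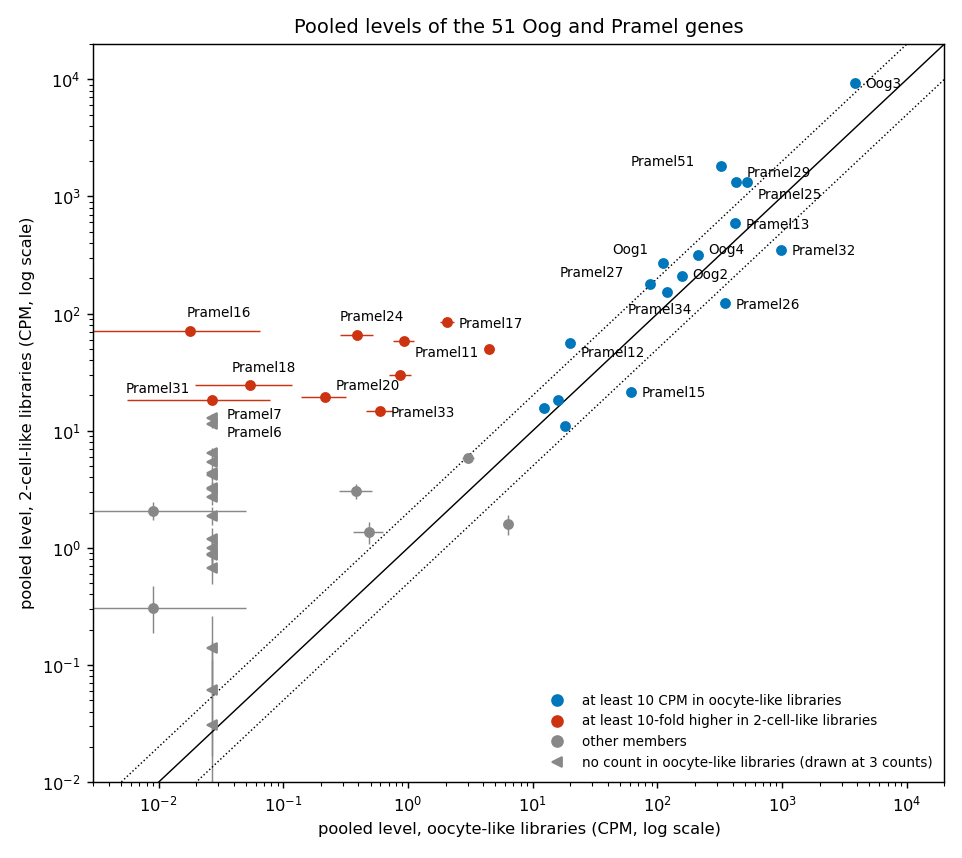
Pooled CPM of the 51 members in oocyte-like (x) and 2-cell-like (y) libraries on log axes, with exact 95% Poisson intervals. The solid line marks equal levels and the dotted lines 2-fold differences. Oog3 lies at 3805 and 9370 CPM; the 10 red members are at or under 4.47 CPM on the x axis and between 14.7 and 84.3 CPM on the y axis.

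Among the members already present in oocyte-like libraries, Oog3 dominated. Oog3 ranged from 511 to 7770 CPM over oocyte-like libraries (median 3690) and from 2572 to 18745 CPM over 2-cell-like libraries (median 9110). The ranges overlap, and 24 of 39 2-cell-like libraries exceeded every oocyte-like one. The pooled level was 2.46-fold higher in the 2-cell-like set (95% interval 2.45 to 2.47). With 1 library left out at a time this ratio ran from 2.38 to 2.53. By label, the 2-cell-like pools stood at 8836 CPM for wild-type oocyte, 10864 for mutant oocyte and 10261 for negative control. The pool for mutant 2-cell stood at 5764 CPM, within 2-fold of the oocyte-like pool of 3805 CPM. Oog3 alone held 49.8% of the members' counts in oocyte-like libraries and 56.4% in 2-cell-like ones. Per kilobase of coding sequence, Oog3 stood at 2531 CPM in the oocyte-like pool, above Pramel32 at 657, Pramel29 at 463 and Pramel25 at 349. In the 2-cell-like pool it stood at 6234 CPM per kilobase, above Pramel51 at 1853, Pramel29 at 1429 and Pramel25 at 880. Per kilobase of transcript, Oog3 was again first, at 2040 and 5024 CPM, but Pramel25 passed Pramel29, at 288 against 174 CPM in the oocyte-like pool and 728 against 538 CPM in the 2-cell-like pool. Per kilobase, Oog3 was the highest of the 40 members with a coding length in all 39 oocyte-like libraries and in 38 of 39 2-cell-like libraries.

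Other members on chromosomes 4 and 12 were also higher. Pramel51 had the largest ratio of the 17 members present in oocyte-like libraries. It ranged from 55.3 to 863 CPM in oocyte-like libraries (median 301) and from 491 to 7270 CPM in 2-cell-like libraries (median 1361). Of the 2-cell-like libraries, 32 lay above every oocyte-like library, and the pooled ratio was 5.60 (5.54 to 5.67). Pramel29 went from a median of 346 CPM (28.3 to 869) to 950 CPM (16.7 to 4563), a pooled ratio of 3.09 (3.06 to 3.12), with 20 2-cell-like libraries above all oocyte-like ones and 2 below all of them. By label, the 2-cell-like pools of Pramel29 stood at 860 CPM for wild-type oocyte, 1664 for mutant oocyte and 3120 for negative control, but at 356 for mutant 2-cell, under the 426 CPM of the whole oocyte-like pool. Pramel25 went from a median of 442 CPM (37.6 to 1225) to 1055 CPM (122 to 4918), and its pooled ratio was 2.52 (2.50 to 2.55). Oog1, an oocyte gene whose protein is known to bind the Ral exchange factor RalGDS, had a median of 99.4 CPM (6.15 to 340) and then 181 CPM (52.0 to 1023). Its pooled ratio was 2.43 (2.37 to 2.48), and 10 of 39 2-cell-like libraries exceeded the oocyte-like range. By label, the 2-cell-like pools of Oog1 stood at 317 CPM for mutant oocyte and 592 for negative control. They stood at 166 CPM for wild-type oocyte and 154 for mutant 2-cell, within 2-fold of the oocyte-like pool of 111 CPM. Pramel12 was less abundant and went from a median of 18.7 CPM (0 to 50.3) to 39.6 CPM (0 to 216), with a pooled ratio of 2.83 (2.68 to 2.98). Pramel27 had a median of 87.9 CPM (0 to 246) and then 143 CPM (0 to 635), with a pooled ratio of 2.04 and a lower 95% bound of 1.99. Its 2-cell-like pools under mutant oocyte and negative control, 52.5 and 39.9 CPM, lay under the oocyte-like pool of 87.4 CPM. These ranges overlap in every case, so single libraries cannot be assigned to a set by any of these genes alone.

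Other members of the oocyte-like set differed little. Oog4 had a median of 194 CPM (8.55 to 410) in oocyte-like and 250 CPM (0.393 to 880) in 2-cell-like libraries. Pramel13 had 422 CPM (62.3 to 746) and 485 CPM (153 to 1494). Oog2 had 162 CPM (21.8 to 365) and 172 CPM (24.1 to 688). Pramel34 had 112 CPM (11.0 to 288) and 113 CPM (4.72 to 484). Their pooled ratios lay between 1.28 for Pramel34 and 1.49 for Oog4, within the spread of either set. Pramel23, Pramel47 and Pramel48, at 10.9 to 18.2 CPM in both pools, were also within 2-fold. Without library 34 (labelled mutant oocyte), Pramel48 was 2.06-fold lower in the 2-cell-like pool.

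Of the 17 members that reached 10 CPM in the oocyte-like pool, 3 were lower in the 2-cell-like set. Pramel32 ranged from 217 to 2389 CPM in oocyte-like libraries (median 915) and from 73.4 to 749 CPM in 2-cell-like libraries (median 345). In the oocyte-like set 27 of 39 libraries lay above every 2-cell-like library. The pooled level was 2.78-fold lower in the 2-cell-like set (2.74 to 2.82). Pramel26 had a median of 323 CPM (17.8 to 772) and then 94.3 CPM (1.09 to 425), 2.85-fold lower in the pool (2.79 to 2.92), with 10 oocyte-like libraries above every 2-cell-like one. Pramel15 had a median of 56.0 CPM (0 to 135) and then 4.06 CPM (0 to 170), 2.84-fold lower in the pool (2.68 to 3.01). By label, its 2-cell-like pools stood at 11.0 CPM for wild-type oocyte and 14.6 for mutant oocyte. They stood at 40.3 CPM for mutant 2-cell and 53.6 for negative control, within 2-fold of the oocyte-like pool of 61.2 CPM. Pramel15 was counted in 38 of 39 oocyte-like and 24 of 39 2-cell-like libraries, and 2 of the latter exceeded the whole oocyte-like range.

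**Figure D3:**
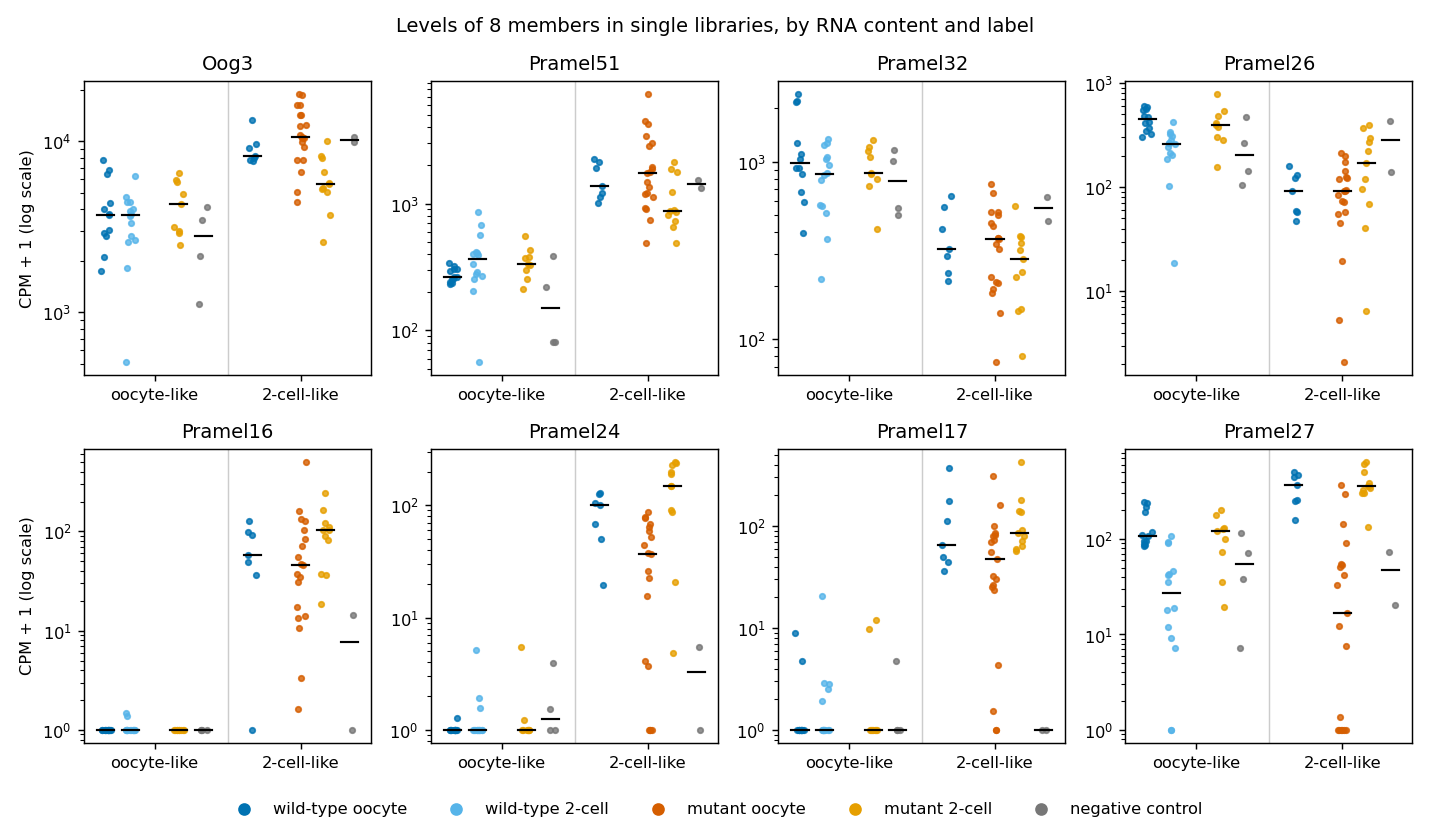
Levels of 8 members (CPM + 1, log axis) in single libraries, by RNA content and, within it, by label (colours); black bars are medians. Every label median of Pramel51 in the 2-cell-like set lies above, and every one of Pramel32 below, all those in the oocyte-like set; Pramel27 is split by label within both sets.

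The 10 members that were at least 10-fold higher were Pramel11, Pramel16, Pramel17, Pramel18, Pramel19, Pramel20, Pramel21, Pramel24, Pramel31 and Pramel33. Of these, 9 are on chromosome 4 and Pramel33 is on chromosome 5. Together they gave 0 to 35.6 CPM in oocyte-like libraries (median 6.16) and 13.5 to 1456 CPM in 2-cell-like libraries (median 389). They were a small part of the family's RNA, 2.62% of the members' level in the 2-cell-like pool, while the 17 members of the oocyte-like set held 96.9%.

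Pramel16 came closest to absence in oocyte-like libraries. It had 2 counts in all 39 of them, in 2 libraries, and a median of 54.8 CPM (0 to 496) in 2-cell-like libraries, of which 37 of 39 had a count. All 37 exceeded every oocyte-like library. Its pooled ratio of 3943 carries a wide counting interval, 1091 to 32571, and was 7735 (1388 to 305592) without library 63 (labelled wild-type 2-cell). Pramel24 had a count in 8 oocyte-like libraries, at most 4.53 CPM, and a median of 58.4 CPM (0 to 241) in 2-cell-like ones, with a pooled ratio of 166 (123 to 228) and 30 libraries above the oocyte-like range. Without library 94 (labelled mutant 2-cell) the ratio of Pramel24 was 252. Pramel17 was at 0 to 19.6 CPM (median 0) and then 0 to 420 CPM (median 64.7), with 33 libraries above the range and a pooled ratio of 40.9 (35.8 to 46.8), or 62.9 without library 61 (labelled wild-type 2-cell). Pramel11 was at 0 to 5.50 CPM (median 0) and then 0 to 252 CPM (median 33.3), a pooled ratio of 63.3 (52.1 to 77.7). Pramel21 had the lowest ratio of the 10, at 11.0 (10.0 to 12.2), since its oocyte-like pool stood at 4.47 CPM. Pramel18 was seen in 1 oocyte-like library, with 6 counts, and in 29 2-cell-like ones, and Pramel31, with 3 counts, in 2 and 30. Their ratios were 459 (211 to 1253) and 685 (234 to 3326). Without library 53, which held its 6 counts, Pramel18 was at least 889-fold higher against the floor of 3 counts, with an exact lower bound of 722. Without library 63 the ratio of Pramel31 was 2015 (361 to 79672). Pramel19, Pramel20 and Pramel33 had pooled levels of 29.7, 19.3 and 14.7 CPM in the 2-cell-like set and ratios of 34.2 (27.9 to 42.4), 90.1 (60.3 to 141) and 24.5 (19.1 to 31.9). Library 94 (labelled mutant 2-cell) held 16 of the 24 oocyte-like counts of Pramel20, whose ratio was 262 without it. None of the 10 had a count in every 2-cell-like library: the number with a count ran from 27 of 39 for Pramel19 to 37 for Pramel16.

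Pramel6 and Pramel7 had no count in any oocyte-like library, and the floor of 3 counts over that set is 0.0268 CPM. The exact upper 95% limit of a count of 0 is 0.0329 CPM there. Pramel7, the CUL2 receptor that targets UHRF1, was at 0 to 125 CPM in 2-cell-like libraries with a median of 0 and a count in 18 of 39. The pool stood at 12.9 CPM, at least 483-fold higher against that floor, with an exact lower 95% bound of 392. Pramel6 was at 0 to 78.4 CPM, counted in 14 libraries, with 11.4 CPM in the pool, at least 424-fold higher against the floor, with an exact lower bound of 344. Both reached 10 CPM and missed the requirement of a count in 50% of libraries, so neither is among the 27. The other 16 members without an oocyte-like count stayed between 0.0308 and 6.49 CPM in the 2-cell-like pool and had a count in 1 to 32 of its libraries. Pramel28, which RefSeq gives as a pseudogene, was the one seen in 32, at 4.35 CPM.

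Among 2-cell-like libraries, the summed level of the 10 was high where burst transcripts were high. It was set against the summed level of the 8 burst markers other than Zfp352, both as log2(CPM + 1). Pearson's r was 0.78 over 19 libraries labelled mutant oocyte (Spearman's rho 0.78) and 0.87 over 11 labelled mutant 2-cell (0.83). Without the 2 libraries farthest from the marker median it was 0.66 and 0.74. Over 7 labelled wild-type oocyte it was 0.53 (rho 0.43) and 0.18 without 2 libraries, so there it rests on those libraries. For the 17 members of the oocyte-like set, r was -0.25, 0.39 and 0.53 in the same order, and -0.29, 0.68 and 0.55 without 2 libraries. All points share library depth and the common total, and these values are descriptions of the libraries. Over all 39 libraries, with labels mixed, r was 0.85 for the 10 and -0.48 for the 17. Single pairs among the 10, also over all 39 libraries, had a median r of 0.31 over 45 pairs and a range from -0.0026 to 0.64.

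**Figure D4:**
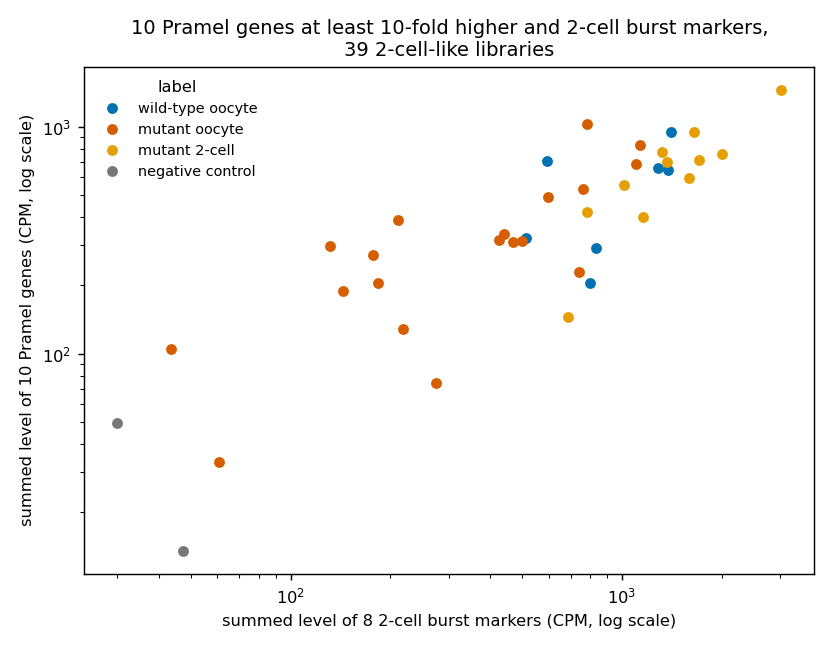
Summed level of the 10 Pramel genes that were at least 10-fold higher against the summed level of 8 burst markers other than Zfp352 in the 39 2-cell-like libraries (both CPM, log axes), coloured by label. The 2 libraries labelled negative control lie at the low end, at 13.5 and 49.4 CPM of the 10 genes.

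By sequence, many members have a near copy. Transcripts were matched for 40 of 51 members in GENCODE M21. In 23 of these 40, another member matched at 90% identity or more over at least 80% of the shorter transcript. They formed 9 groups. The 4 members of the group of Pramel16, Pramel20, Pramel28 and Pramel31 were 95.7% to 96.9% identical. In the oocyte-like pool 0 of them reached 10 CPM, and 3 of the 4 were among the 10. Pramel11, Pramel21 and Pramel24 were 93.2% to 96.2% identical and all 3 were among the 10. Oog1, Pramel29 and Pramel51, 95.0% to 98.8% identical, all reached 10 CPM in both sets and were higher in the 2-cell-like one. The group of Pramel37, Pramel39 and Pramel50 held 3 members without an oocyte-like count, and Pramel37 and Pramel50 are identical over the aligned transcript. How reads that match more than 1 copy were counted is not given in the sources used here, so a value of any of these genes can include reads of its copies.

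Some near copies had unlike values, however. Oog2 and Pramel26 are 98.0% identical as transcripts. Their coding sequences differ at 21 of 1431 aligned bases, with 317 bases as the longest identical run. Oog2 exceeded Pramel26 in 1 of 39 oocyte-like libraries and in 32 of 39 2-cell-like libraries. The median ratio of Oog2 to Pramel26 was 0.45 in the first and 1.65 in the second set, and their pooled sum was 504 and then 333 CPM. The 90 coding bases in which the 2 differ most (Oog2 bases 208 to 297, Pramel26 bases 262 to 351 of the GENCODE M21 coding sequences, 4 differences in capitals) show how few positions separate them.
Oog2: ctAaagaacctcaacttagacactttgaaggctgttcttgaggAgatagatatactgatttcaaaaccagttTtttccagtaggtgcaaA
Pramel26: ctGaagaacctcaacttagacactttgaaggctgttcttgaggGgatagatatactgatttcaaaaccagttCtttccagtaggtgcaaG

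Oog1 and Pramel51 differ at 7 of 921 aligned coding bases and share a run of 321. Pramel51 exceeded Oog1 in all but 2 of 39 oocyte-like libraries and in all 39 2-cell-like libraries, with a median ratio of 3.32 and 7.14. Their most different stretch of 90 coding bases, with 3 differences in capitals (Oog1 bases 782 to 871, Pramel51 bases 833 to 922), is printed for the same reason.
Oog1: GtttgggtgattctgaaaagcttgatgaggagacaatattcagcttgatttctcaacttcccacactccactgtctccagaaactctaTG
Pramel51: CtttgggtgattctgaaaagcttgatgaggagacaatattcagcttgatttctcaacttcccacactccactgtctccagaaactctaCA

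Pramel27 and Pramel22, 98.1% identical as transcripts, were also unequal. Pramel27 was the higher in 37 oocyte-like and 32 2-cell-like libraries, with a median ratio of 35.7 and 14.1, and Pramel22 stayed at 3.03 and 5.87 CPM in the pools.

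**Figure D5:**
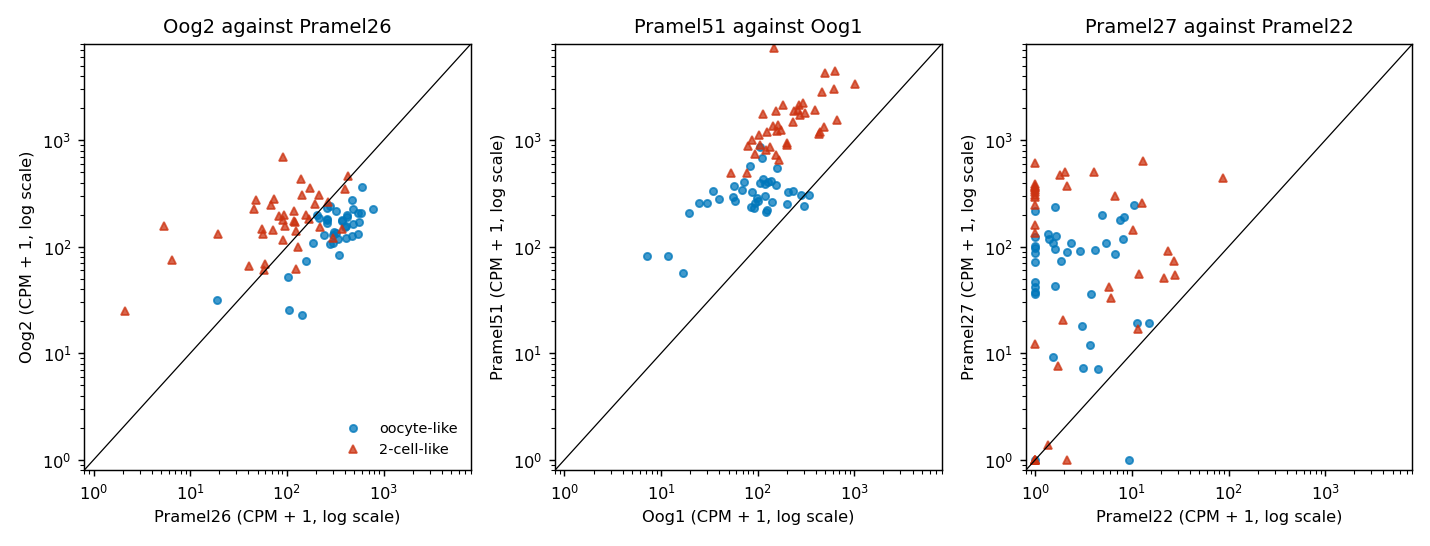
Levels of 3 pairs of near-identical members in single libraries (CPM + 1, log axes; circles oocyte-like, triangles 2-cell-like; the line marks equality). Oog2 passes Pramel26 in 1 circle and 32 triangles, and Pramel51 lies above Oog1 in all 39 triangles.

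Promoters of many members also share letters. Of the 51 members, 41 have a promoter in the RefSeq table (GRCm38.p6), from 250 bases before to 50 after the start. Both strands were searched. TATAAA was in 14 of these 41, against 13.6% of all 32851 promoters, and TAATTG, the core bound by the oocyte factor NOBOX, was in 12, against 8.00%. TAATTG was in 8 of the 13 promoters found for the 17 members of the oocyte-like set, in 2 of the 9 found for the 10 and in 2 of the other 19. CANNTG, the E-box, was in 38 of 41, against 72.3%. TAATCC, an OBOX site, was in 5, against 7.06%. CCAAT was in 21, against 37.4%. The element GGTGTGGC and the run TATATA were seen after the promoters had been read and are descriptions. GGTGTGGC was in 18 of 41 promoters, against 2.80% of all, and TATATA in 20, against 5.67%. GGTGTGGC was in 10 of 13 promoters of members of the oocyte-like set, in 2 of 9 of the members at least 10-fold higher (Pramel11 and Pramel24) and in 6 of the other 19. In all 18 it stood upstream of a TATATA or TATAAA on the gene's strand, at a median of 34 bases (8 to 37) from start to start. Near copies share promoters, so these counts are not of independent sequences, and TATATAAA holds both runs. A match is a description of letters, not a site.

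The 120 bases before the start are printed for 10 members, 6 of the oocyte-like set and 4 of the 10 at least 10-fold higher, since they carry the shared element and the copies without it. Capitals mark GGTGTGGC and the first TATATA or TATAAA in an overlapping run. Oog3 (chr4:144162652-144162771, minus strand), Pramel27 (chr4:143846377-143846496, plus), Oog2 (chr4:144190597-144190716, plus), Pramel26 (chr4:143816094-143816213, minus), Pramel32 (chr4:88634187-88634306, minus) and Pramel29 (chr4:144213018-144213137, minus) come first. Pramel11 (chr4:143900381-143900500, minus) and Pramel24 (chr4:143719331-143719450, plus) follow, and then Pramel20 (chr4:143567347-143567466, plus) and Pramel31 (chr4:144357844-144357963, plus), which have TATAAA and no GGTGTGGC.
Oog3: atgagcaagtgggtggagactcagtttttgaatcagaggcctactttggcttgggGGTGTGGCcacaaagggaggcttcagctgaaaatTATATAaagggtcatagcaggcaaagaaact
Pramel27: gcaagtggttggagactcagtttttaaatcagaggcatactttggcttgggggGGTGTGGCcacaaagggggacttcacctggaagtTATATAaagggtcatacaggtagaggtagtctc
Oog2: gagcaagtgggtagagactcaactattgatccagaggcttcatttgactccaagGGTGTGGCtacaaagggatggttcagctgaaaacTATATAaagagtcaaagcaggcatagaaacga
Pramel26: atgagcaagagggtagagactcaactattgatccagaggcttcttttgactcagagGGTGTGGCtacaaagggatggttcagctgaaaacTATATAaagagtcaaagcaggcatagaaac
Pramel32: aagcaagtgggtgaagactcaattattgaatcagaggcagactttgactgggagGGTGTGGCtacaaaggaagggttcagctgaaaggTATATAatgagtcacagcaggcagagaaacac
Pramel29: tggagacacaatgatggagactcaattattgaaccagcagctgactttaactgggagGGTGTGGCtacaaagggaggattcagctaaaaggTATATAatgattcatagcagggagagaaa
Pramel11: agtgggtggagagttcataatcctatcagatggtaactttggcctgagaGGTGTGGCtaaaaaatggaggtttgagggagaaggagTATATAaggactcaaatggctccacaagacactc
Pramel24: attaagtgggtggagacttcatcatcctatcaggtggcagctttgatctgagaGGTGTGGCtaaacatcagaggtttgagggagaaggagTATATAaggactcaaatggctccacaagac
Pramel20: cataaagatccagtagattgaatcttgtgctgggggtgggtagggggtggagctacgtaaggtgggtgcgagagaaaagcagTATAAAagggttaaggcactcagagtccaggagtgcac
Pramel31: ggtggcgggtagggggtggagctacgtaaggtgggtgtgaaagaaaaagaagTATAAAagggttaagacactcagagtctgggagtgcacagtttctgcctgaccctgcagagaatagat

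Pramel32 and Pramel26, lower in the 2-cell-like set, carry the same pair of elements as Oog3 and Pramel29, higher there, and as Oog2, within 2-fold.

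The study's own contrast is between genotypes, and the labels can be compared only with their RNA content in view. Between libraries labelled mutant oocyte (19, all 2-cell-like) and wild-type oocyte (19, of which 12 were oocyte-like), 15 of 26 members compared were at least 2-fold higher under the mutant label, against 16.8% of genes, and 4 were lower, against 22.7%. The 15 became 6 with TMM scaling or DESeq2 size factors, 9 with medians, 7 with means over libraries and 8 without the libraries rich in cumulus and granulosa markers. Between mutant 2-cell (21) and wild-type 2-cell (14, all oocyte-like), 8 of 24 members were higher, against 7.88%, and 0 were lower, against 11.8%. With medians 4 were higher and 1 lower, and at 5 CPM with no share of libraries 14 were higher. In both contrasts genotype label and RNA content cannot be told apart. The 8 were Pramel11, Pramel16, Pramel17, Pramel19, Pramel20, Pramel21, Pramel24 and Pramel27, so 7 of them were among the 10. In the wild-type 2-cell pool these 7 lay between 0 (Pramel20) and 4.52 CPM (Pramel21). They passed the filter of 10 CPM through the mutant label alone and had to be higher. The 8 are therefore not read as an excess. Of the 15, Pramel18, Pramel19, Pramel20 and Pramel31 were under 10 CPM in the wild-type oocyte pool, at most 9.43 CPM. These too had to be higher, so nothing is read from the 15.

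The Mos and Zfp352 rule is the same on both sides of a contrast within a kind of content, but other RNA content can differ. The stage labels of the libraries compared do not match their kind of content. Whether their genotype labels hold was not tested. The labels compared also lie in separate runs of library numbers, so label and library order cannot be told apart. Among oocyte-like libraries, mutant 2-cell (9) against wild-type 2-cell (14), 1 of 17 members was at least 2-fold higher, against 1.48% of genes, and 0 were lower, against 23.4%. That share of genes was 14.0% with Mos at 300 CPM and 7.41% without the libraries of over 1000 CPM of cumulus and granulosa markers, of which 1 was labelled mutant 2-cell and 7 wild-type 2-cell. The member higher was Pramel27. Among 2-cell-like libraries, mutant oocyte (19) against wild-type oocyte (7), 3 of 29 were higher, against 19.1%, and 6 were lower, against 10.3%. The 3 were Pramel34, Pramel47 and Pramel48. The 6 were Pramel6, Pramel7, Pramel20, Pramel24, Pramel27 and Pramel33. Pramel47 and Pramel48 were under 10 CPM in the wild-type oocyte pool, and Pramel6, Pramel7 and Pramel33 in the mutant oocyte pool. Each of these entered through its higher label alone. In these libraries burst markers, with Zfp352, summed to 648 to 2218 CPM under wild-type oocyte and to 44.1 to 1468 CPM under mutant oocyte. The 10 members at least 10-fold higher had median sums of 644 and 311 CPM. Whether this bears on the 6 was not tested. Leaving out library 4 (labelled wild-type oocyte) gave 5 higher and 10 lower, and leaving out library 5 gave 6 higher. Pramel48, at 4.43-fold higher, had 41 of its 42 wild-type oocyte counts in library 2 and was 169-fold higher (30.3 to 6699) without it, against 1 count. Pramel20, 2.05-fold lower, was 1.22-fold lower without library 6, and the ratio of Pramel24 was 0.476, or 0.421 to 0.516 with 1 library left out, so that it crossed 2-fold.

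Pramel27 had unlike levels between labels in both kinds of content. Among 2-cell-like libraries it ranged from 158 to 505 CPM under wild-type oocyte (median 368), from 132 to 635 CPM under mutant 2-cell (median 356) and from 0 to 369 CPM under mutant oocyte (median 15.8). Of the 19 libraries labelled mutant oocyte, 17 lay below all 7 labelled wild-type oocyte, and the pooled level was 6.85-fold lower (6.49 to 7.24). Among oocyte-like libraries it had a median of 107 CPM (84.5 to 246) under wild-type oocyte, 121 CPM (18.3 to 199) under mutant 2-cell and 26.5 CPM (0 to 108) under wild-type 2-cell. The last was 2.93-fold lower than mutant 2-cell in the pool (2.74 to 3.12). Of the libraries labelled negative control, 4 oocyte-like ones had a median of 53.9 CPM (6.19 to 116), and 2 2-cell-like ones stood at 19.5 and 72.7 CPM.

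Pramel6 and Pramel7 were also low under the label mutant oocyte in 2-cell-like libraries. Pramel7 had a median of 27.3 CPM (0 to 117) in 7 libraries labelled wild-type oocyte, 22.8 CPM (0 to 125) in 11 labelled mutant 2-cell and 0 CPM (0 to 8.76) in 19 labelled mutant oocyte, with counts in 6, 9 and 3 of them. Its pooled level was 86.8-fold lower under mutant oocyte than under wild-type oocyte (52.9 to 153), and 334-fold lower without library 46, which held 12 of its 16 mutant oocyte counts. Pramel6 had medians of 35.5, 18.0 and 0 CPM and counts in 4, 6 and 4 libraries, and its pooled level was 6.58-fold lower under mutant oocyte, or 13.0-fold lower without library 27. Pramel24 was lower as well, with a median of 35.6 CPM (0 to 85.8) under mutant oocyte, 101 CPM (18.6 to 127) under wild-type oocyte and 149 CPM (3.86 to 241) under mutant 2-cell, and the ranges overlap. Pramel34 went the other way, with a median of 186 CPM (54.7 to 484) under mutant oocyte and 95.4 CPM (50.5 to 124) under wild-type oocyte, a pooled ratio of 2.29 (2.14 to 2.44). Its near copy Pramel47, 98.8% identical, had a ratio of 2.86 (2.29 to 3.61).

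Genes of the CUL2 ligase and targets or partners of PRAME-family proteins, among them Ralgds, were described from a list of 11. Of the 10 that could be compared, 3 were higher and 4 lower in the 2-cell-like set, with a median log2 ratio of -0.23 against -0.08 over all genes. The scaffold Cul2 was 2.12-fold lower, though at 53.3 CPM under the label negative control against 35.2 CPM in the oocyte-like pool, and the adaptor Elob 7.82-fold lower (0 to 759 CPM over oocyte-like libraries), while the RING subunit Rbx1 was 2.95-fold higher and Fem1b, another substrate receptor of CUL2, 2.59-fold higher. Uhrf1 had a median of 1036 CPM in oocyte-like and 440 CPM in 2-cell-like libraries, 2.25-fold lower in the pool, and Dnmt1 was 14.1-fold lower. Ralgds was 2.99-fold higher in the pool, with 8 of 39 2-cell-like libraries above and 12 below every oocyte-like one (0 to 350 CPM). From a list of 9 oocyte transcription factors, 7 could be compared. Taf4b, a TFIID subunit, was 2.46-fold higher, and Obox2 was 12.2-fold lower, with 37 of 39 2-cell-like libraries below every oocyte-like one. Nobox, whose core was searched for in the promoters, was 1.64-fold lower, with a median of 124 CPM and then 60.6 CPM and 128 CPM under the label negative control, and Lhx8 was at 52.9 and 54.4 CPM in the pools. The median of the 7 was -0.48.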

How the data were processed

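The authors deposited 1 table of raw gene counts, whole numbers with no normalization, for 96 libraries, with no molecular identifiers named. Libraries labelled oocyte or 2-cell are of 1 cell each, and the others are labelled negative control. Polyadenylated RNA was copied by template switching and amplified over 15 PCR cycles, per the labels' protocols. Reads were trimmed with Trim Galore 0.4.4 and aligned with HISAT2 2.1.0 to GRCm39, and DESeq2 was used, per the submitters' processing notes. The counting tool is not given in the sources used here. In all, 48 rows with a repeated symbol were summed, and 0 columns lacked a sample or repeated another.

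Levels are counts summed over the libraries of a set per 1000000 total counts (CPM). Ratios have exact conditional binomial 95% intervals and levels exact Poisson intervals. A set without counts was given a floor of 3 counts over the set. Genes were compared at 10 CPM in the pool of either set with a count in 50% of the libraries of the higher one, and called at 2-fold. The calculation was run on simulated counts with Poisson error only, no further spread between libraries, and planted changes larger than 2-fold. It checks the calculation and not the calls made here. Values of every member of at least 50 CPM were named, others by range or count. Alternatives used edgeR 4.0.16 (TMM), DESeq2 1.42.0 size factors, other filters and left-out libraries. The members, lists and the Mos and Zfp352 rule were chosen with earlier results of these data known. Lengths and identities come from GENCODE M21 transcripts (GRCm38) through blastn and a global alignment. The coding length in that annotation stood in for the planned RefSeq protein length. Each symbol is in the RefSeq table, and coordinates are of GRCm38.p6, not of the authors' build. Doublets were not searched for, as each cell was picked singly.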

Additional observations from a re-analysis of the deposited data

Results flagged for a closer look

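Within libraries of one kind of content and one label, 8 values stood far from the rest of their group by Dixon's critical values. In all, 55 sets of values were looked at, each of 1 measure in 1 group, of which chance flags about 1 in 20. These sets are not independent, as Oog3 is part of the summed level. The flag picks out single libraries and is no test between sets or labels. Under the label wild-type oocyte, 7 2-cell-like libraries, library 5 had the highest summed level of all members, 21347 CPM against 15936 CPM for the next, the highest Oog3, 13353 CPM against 9677 CPM, and the highest Pramel15, 79.2 CPM against 13.1 CPM. Library 4 of that group had the highest Pramel12, 181 CPM against 58.0 CPM, and library 6 the highest Pramel17, 366 CPM against 173 CPM. Among 9 oocyte-like libraries labelled mutant 2-cell, library 85 had Pramel11 at 4.86 CPM against 1.13 CPM, and library 94 had Pramel24 at 4.53 CPM against 0.231 CPM. Among 4 oocyte-like libraries labelled negative control, library 96 had Pramel17 at 3.71 CPM and the others at 0.

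Of the 17 libraries that were not kept, 10 held more than 3 counts of the members, the highest of them 43174 counts.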

How the results depend on the processing

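Over the alternatives that left out no single library, 132 of 141 values of the counts, medians and summed levels stayed within 1.5 times or 1 SD, 9 moved and 0 reversed. The number of members higher under the label mutant oocyte than wild-type oocyte, 15, was 6 with TMM scaling, 6 with DESeq2 size factors, 9 with medians and 7 with means over libraries, and 8 without libraries of over 1000 CPM of cumulus and granulosa markers (11 oocyte-like, 0 2-cell-like), an alternative chosen after seeing the data. The members higher under mutant 2-cell, 8, became 4 with medians and 14 at 5 CPM with no share of libraries, and those lower, 0, became 1 with medians. Within 2-cell-like libraries, 3 higher became 1 with medians. The cause was not tested. Without the libraries labelled negative control, the sets still had 17 and 29 members of at least 10 CPM, 17 higher and 3 lower. Of all genes called, 42.4% were higher under mutant oocyte and 31.3% with TMM; among oocyte-like libraries, 5.96% under mutant 2-cell and 18.9% with DESeq2 size factors.

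Leaving out 1 library at a time gave 16 to 17 members higher and 3 to 4 lower between the sets, medians of 1.28 to 1.40, and 17 and 28 to 29 members of at least 10 CPM. It gave 10 to 16 and 4 to 4 for the oocyte labels, 7 to 10 and 0 for the 2-cell labels, and 3 to 6 higher and 4 to 10 lower within 2-cell-like libraries. The number higher was 5 without library 4, 8, 31 or 45 and 6 without library 5, and the number lower 10 without library 4. The log2 ratio of Pramel16 was 12.92 without library 63, that of Pramel17 5.98 without library 61, and that of Pramel24 7.98 without library 94, where 11.95, 5.35 and 7.37 stood with all libraries. Other ratios given without 1 library were chosen after seeing the data. Pramel16, Pramel17 and Pramel24 had 2, 231 and 44 counts in the oocyte-like set. No paired analysis was possible because each library number in the labels is used once and no number is shared between groups.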

Other observations

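A search with the members' transcripts found 19 further table entries with at least 500 aligned bases at 80% identity or more, under other names. This list was made after the data had been seen. Gm2042 is identical to Oog1 over 969 aligned bases. It ranged from 9.00 to 287 CPM in oocyte-like libraries (median 80.9) and from 123 to 1108 CPM in 2-cell-like libraries (median 304). Its pooled ratio was 3.90 (95% counting interval 3.81 to 3.99), between those of Oog1 and Pramel51. Gm12789, 86.3% identical to Pramel17 over 644 bases, had no count in oocyte-like libraries and 0 to 251 CPM in 2-cell-like ones (median 13.9), at least 1088-fold higher in the pool against a floor of 3 counts. Gm6205 and AA792892, both nearest to Pramel47, were at 14.6 and 10.7 CPM in the oocyte-like pool and 20.5 and 20.0 CPM in the 2-cell-like pool. The other 15 stayed at or below 3.30 CPM in both pools.

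Library 86, labelled mutant 2-cell, was in neither set. It had counts of 2 members and 11.4 CPM of all members together, with 0 CPM of Oog3. Its cumulus and granulosa markers summed to 5760 CPM, Hsd3b1 stood at 3483 CPM, and Zp3, Padi6 and Gdf9 were at 3.37, 4.21 and 0 CPM.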
